A study of Mus musculus with 12 samples.

Results

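Urotensin 2B (*Uts2b*), its paralog urotensin 2 (*Uts2*) and their receptor (*Uts2r*) were followed in bulk RNA-seq of the embryonic mouse spinal cord, 3 genes of the 45777 in the deposited tables. *Uts2b* was chosen by its KO minus heterozygote difference in these same libraries, as the strongest loss at both levels, which here means the first in order of p, and the other members as its paralog and its receptor. The KO values of *Uts2b* are therefore given as a description without a test, and tests are kept for the other genes and for the comparison of levels. Total RNA of the ventral cord was sequenced at E12.5 at the level of the forelimb (brachial) and of the hindlimb (lumbar), 3 libraries per group and 12 in all. Control embryos were *Isl2* +/-, so they carried 1 null allele themselves, KO embryos were *Isl2* -/-, and wild-type libraries were not analysed here. All embryos carried the *Hb9::GFP* reporter, which marks motor neurons (MNs) and guided the trimming of the tissue, so the libraries hold ventral cord around the MNs and not sorted cells. The study names 3 animals of each genotype. Brachial and lumbar libraries of a genotype may come from the same embryos, and the p-values measure the spread between these libraries.

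Urotensin II and the urotensin II-related peptide made from *Uts2b* are short cyclic peptides, distantly related to somatostatin, that are cut from larger precursors. Both bind the urotensin receptor, which couples to Gq and raises intracellular calcium through phospholipase C. In the mammalian spinal cord and brainstem the precursors have been found in cholinergic MNs, and *Isl2* encodes a LIM homeodomain transcription factor of postmitotic MNs.

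The active end of both peptides is a ring closed between a pair of cysteines. Its coding sequence is shown because it is the part by which both ligands meet the same receptor. The stretch was found by script in the GENCODE M21 transcripts as the last 6 codons before the final residue, from one cysteine codon to the next. It lies in the last exon of *Uts2b*, exon 5 (chr16:27353718-27353735, minus strand, mm10), and in the last exon of *Uts2*, exon 4 (chr4:151001657-151001674, plus strand). Capitals mark the bases that differ between the genes, coding strand, 5′ to 3′.

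*Uts2b*: tgTttTtggaaGtactgT

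*Uts2*: tgCttCtggaaAtactgC

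The 18 bases differ at 4 positions, and all 6 codons have the same meaning in both genes. No identical window of 25 bases was shared between the *Uts2b* transcript (835 bases) and the *Uts2* transcript (538 bases) on either strand.

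*Uts2b* (gene 224065, chr16:27353322-27370239 of GRCm38.p6, minus strand, 5 exons) was lower in *Isl2* KO at both levels. At the brachial level it measured 25.2, 25 and 25.9 TPM in the heterozygotes (Het) and 12.4, 11.7 and 11.4 TPM in *Isl2* KO. TPM is a transcript abundance per length and per library, here rescaled between libraries by size factors. In the lumbar cord the Het libraries held 21.7, 21.5 and 22.5 TPM and the KO libraries 9.3, 8.81 and 11.1 TPM. The highest KO library at either level lay far below the lowest Het library. *Uts2b* in KO stood at 46.8% of the Het mean in the brachial cord and at 44.5% in the lumbar cord. On the log2(TPM + 0.1) scale the KO minus Het difference was −1.09 (SE 0.08) and −1.17 (SE 0.11). The lumbar minus brachial difference between these values was −0.08 (SE 0.13), and it was −0.24 (SE 0.15) with the values as deposited and −0.17 (SE 0.1) without lumbar KO replicate 3. All these values describe the contrasts on which the gene was listed.

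**Figure D1:**
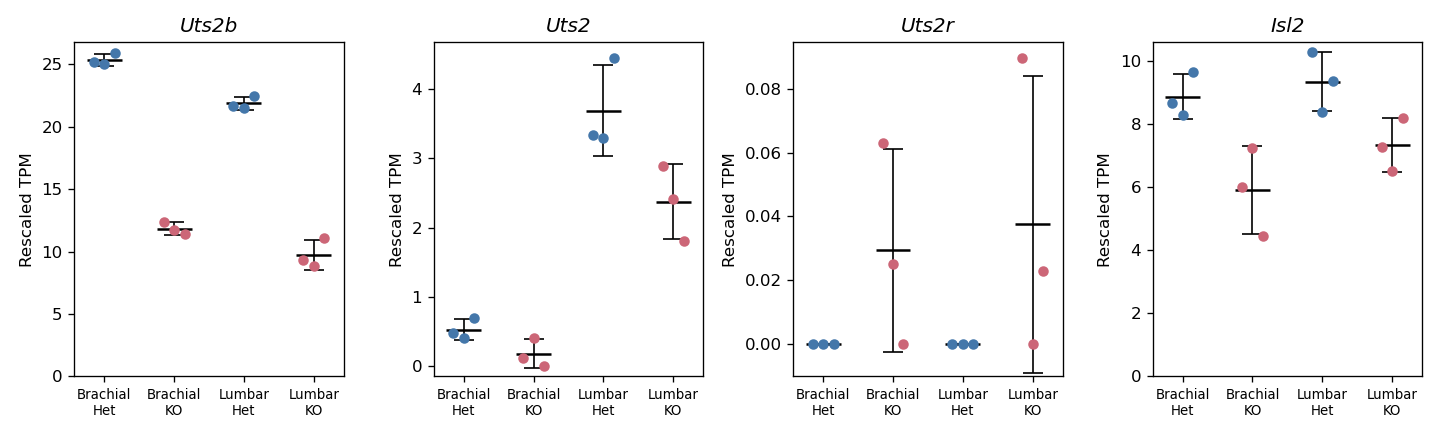
Rescaled TPM of *Uts2b*, *Uts2*, *Uts2r* and *Isl2* in each of the 12 libraries (points), with the mean (bar) and SD (error bar) of 3 libraries per group, Het in blue and *Isl2* KO in red. The KO libraries of *Uts2b* lie between 8.81 and 12.4 TPM and the Het libraries between 21.5 and 25.9 TPM, whereas *Uts2* is higher in the lumbar groups and *Uts2r* is 0 in all Het libraries.

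The Het libraries were close to each other for *Uts2b*, with a coefficient of variation (SD over mean) of 1.74% in the brachial and 2.54% in the lumbar group. It was 4.53% in brachial KO and 12.6% in lumbar KO, where replicate 3 was the highest. The gene was read deeply, with a mean per-base coverage of 67.6 to 78.4 in the Het libraries and 24.7 to 39.3 in the KO libraries. Among protein-coding genes, *Uts2b* ranked above 77.5% to 78% of genes in the brachial Het libraries and above 63.4% to 65.6% in brachial KO. In the lumbar libraries these ranges were 74.5% to 75.3% and 60.9% to 64%.

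As a further description of the contrasts it was chosen on, *Uts2b* was not the gene of largest difference. Among genes with a Het mean of at least 5 TPM it was number 13 of 10998 from the most reduced in the brachial and number 6 of 10974 in the lumbar cord.

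For background, the threshold of the study, stated for lower genes, was a log2 change below −0.5 with an unadjusted p under 0.05. Here it called 0.871% of the 16768 genes tested lower in brachial KO and 0.794% of 16620 lower in lumbar KO (limma). Extended here to changes beyond 0.5 in either direction, it called 3.08% and 1.77%. An unadjusted p under 0.05 alone held for 13.9% and 4.86% (limma). KO libraries all lay below Het libraries for 10.4% of genes in the brachial and 5.52% in the lumbar cord. Nothing is read from these shares for *Uts2b*, since it was listed on these contrasts. In *Isl2* itself, the targeted gene, the Het libraries held 8.69, 8.29 and 9.68 TPM and the KO libraries 6.01, 7.25 and 4.46 TPM at the brachial level. At the lumbar level the values were 10.3, 8.4 and 9.39 TPM in Het and 7.3, 6.51 and 8.21 TPM in KO. The groups did not overlap, but neither change passed an adjusted p of 0.05 (log2 change −0.61, SE 0.18, adjusted p = 0.357, and −0.35, SE 0.13, adjusted p = 0.999, limma). The brachial difference passed the threshold of the study (unadjusted p = 0.0107, limma), but not without brachial KO replicate 3 (−0.42, unadjusted p = 0.0168) or with the values as deposited (−0.43, unadjusted p = 0.0808, limma). The tables hold 1 value per gene, so exons that a null allele may still transcribe could not be set apart. With coverage in place of TPM the *Isl2* difference was −0.84 (SE 0.29, adjusted p = 0.373) in the brachial and −0.72 (SE 0.23, unadjusted p = 0.0159, adjusted p = 0.997) in the lumbar cord, where it then passed the threshold of the study (limma).

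*Uts2* (gene 24111, chr4:150997097-151001810, plus strand, 4 exons) encodes the urotensin II precursor and was mainly a lumbar transcript. In the brachial cord it was near the limit of measurement, at 0.476, 0.401 and 0.697 TPM in Het and 0.119, 0.412 and 0 TPM in KO. In the lumbar cord it reached 3.33, 3.29 and 4.45 TPM in Het and 2.89, 2.41 and 1.81 TPM in KO. Every lumbar library was above every brachial library, as was so within Het for 12.9% and within KO for 14.9% of genes.

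Between levels *Uts2* was 7.03-fold higher in lumbar than in brachial Het libraries (log2 difference 2.61, SE 0.25, adjusted p = 0.00338, limma), a call that 0.969% of genes shared in this direction. In KO the means differed 13.4-fold (log2 difference 3.44, SE 0.58, adjusted p = 0.0408, limma), where 0.816% of genes were called higher. With a brachial KO mean of 0.177 TPM, *Uts2* passed the filter of 0.5 TPM in this comparison only through its lumbar libraries, so this call is no independent support for the difference. Both values change with the added constant, to 1.62 in Het (adjusted p = 0.00221) and 1.52 in KO (adjusted p = 0.0159) when 1 was added in place of 0.1 (limma). The adjusted p of the KO difference rose above 0.05 under 8 of 18 alternatives, up to 0.151, among them leaving out any 1 of the 3 lumbar KO libraries. When both genotypes were averaged over all 12 libraries, a fit chosen after the data had been seen, the log2 difference was 3.03 (SE 0.33, adjusted p = 0.000235, limma), with 8.73% of genes called higher. There too *Uts2* passed the filter only through its lumbar libraries.

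In the lumbar cord *Uts2* was lower in all 3 KO than in all 3 Het libraries. The mean was 2.37 ± 0.541 TPM against 3.69 ± 0.659 TPM (SD, n = 3), or 64.3% of Het. The log2 difference of −0.63 (SE 0.22) passed the threshold of the study at an unadjusted p of 0.0211, and its adjusted p was 0.999 (limma). It lost that threshold without lumbar Het replicate 3 (log2 difference −0.49, unadjusted p = 0.0793) and without lumbar KO replicate 3 (−0.45, unadjusted p = 0.0659), both in limma. It was also lost with all 12 libraries in one fit (−0.63, unadjusted p = 0.21, limma) and, by size, with a pseudocount of 1 (−0.48). Averaged over both levels in all 12 libraries, a fit added after the data had been seen, the KO minus Het difference was −1.04 (SE 0.33, adjusted p = 0.298, limma), in a fit that called 0.024% of genes lower. The difference did not pass the adjusted threshold in either fit. In the brachial cord, *Uts2* was under the expression filter, a mean TPM of 0.5, and the genotypes overlapped (two-sided exact permutation p = 0.2, when the smallest p that 3 against 3 allows is 0.1). The difference of the KO effects between levels was 0.83 (SE 0.67, adjusted p = 0.813, limma), and its sign turned with a larger added constant. It was 1.42 without brachial KO replicate 2 and 0.24 without brachial KO replicate 3, so it rests on single libraries.

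Few reads stood behind *Uts2* in the brachial cord. The aligned bases over its 538 exonic bases were 624 to 1070 in brachial Het, 0 to 662 in brachial KO, 5883 to 7185 in lumbar Het and 3029 to 4118 in lumbar KO. *Uts2b* had 20591 to 65436 aligned bases in the same libraries.

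*Uts2* lies inside the span of the clock gene *Per3*, which runs on the opposite strand and shares 0 exonic bases with it. How strand was used in counting is not given in the sources used here, so reads of both genes cannot be told apart over *Uts2*. The share of *Per3* reads in the *Uts2* values was not tested. *Per3* measured 0.82, 1.04 and 0.951 TPM in brachial Het and 1.26, 1.2 and 1.01 TPM in lumbar Het (log2 difference 0.28, SE 0.22, adjusted p = 0.541, limma), and its lumbar minus brachial difference in KO was −0.12 (SE 0.26, adjusted p = 0.813, limma). These values come from the exons of *Per3* and do not measure its intronic reads over *Uts2*.

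*Uts2b* had the other order between levels, with a much smaller difference. Lumbar libraries were lower than brachial libraries in both genotypes, without overlap, as for 13% of genes in Het and 14.2% in KO. The log2 difference was −0.21 in Het (SE 0.06, adjusted p = 0.113) and −0.29 in KO (SE 0.12, adjusted p = 0.209), neither past the threshold in limma. Averaged over genotypes in all 12 libraries, again a fit chosen after the data had been seen, it was −0.25 (SE 0.06, adjusted p = 0.0185), and 9.48% of genes were called lower in that fit. Against the mean log2 level of the cholinergic genes *Chat*, *Slc18a3* and *Slc5a7*, the lumbar minus brachial difference of *Uts2b* was −0.01 in Het and 0.2 in KO. This depends on the reference gene. From brachial to lumbar Het, *Slc5a7* went from 28 to 15.1 TPM, *Chat* from 8.11 to 9.73 TPM and *Slc18a3* from 20.8 to 21.9 TPM. *Uts2b* stood at 300% to 330% of *Chat* in brachial Het and at 207% to 237% in lumbar Het. In KO it stood at 178%, 177% and 153% in brachial and at 108%, 98.1% and 219% in lumbar libraries.

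As TPM is per length, the ligands can be set beside each other. *Uts2* made up 2.02% ± 0.543 of the summed ligand RNA in brachial Het and 14.4% ± 1.85 in lumbar Het (SD, n = 3). In KO the share was 1.45% ± 1.75 in the brachial and 19.7% ± 5.1 in the lumbar libraries. The sum of both ligands was 25.9 ± 0.594 TPM in brachial Het and 25.6 ± 1.21 TPM in lumbar Het. It stood at 12 ± 0.597 and 12.1 ± 0.866 TPM in KO. The group means of the sum lay close together at both levels within a genotype, while the share of *Uts2* did not.

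*Uts2r* (gene 217369, chr11:121160271-121161973, plus strand, 1 exon) encodes the receptor and was close to undetected. It was listed at 0 in all 6 Het libraries. In KO it was listed at 0.0629, 0.0252 and 0 TPM in the brachial and 0.0895, 0 and 0.023 TPM in the lumbar libraries. The 4 libraries above 0 had between 122 and 404 aligned bases over a gene of 1703 exonic bases, the amount that a few reads give. Het and KO overlapped (two-sided exact permutation p = 0.4 at each level), and *Uts2r* did not pass the expression filter. A change in the receptor was not detectable at this depth. The ligands were thus measured in tissue in which the receptor was hardly read.

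Promoters are shown for both ligands because homeodomain factors commonly bind the 4-letter core TAAT. Both ligands were lower in lumbar KO libraries, *Uts2b* by its listing and *Uts2* at an adjusted p of 0.999 (limma). A link between these letters and the KO values was not tested. Each run is the 250 bases upstream of the annotated start from RefSeq (GRCm38.p6), 5′ to 3′ along the gene, with TAAT on either strand (TAAT or ATTA) in capitals. The *Uts2b* promoter is chr16:27370240-27370489, minus strand, and the *Uts2* promoter is chr4:150996847-150997096, plus strand.

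*Uts2b*: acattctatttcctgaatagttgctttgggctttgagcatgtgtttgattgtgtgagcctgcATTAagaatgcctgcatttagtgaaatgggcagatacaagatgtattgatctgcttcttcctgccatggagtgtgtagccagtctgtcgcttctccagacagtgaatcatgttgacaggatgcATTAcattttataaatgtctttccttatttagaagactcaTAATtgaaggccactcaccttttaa

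*Uts2*: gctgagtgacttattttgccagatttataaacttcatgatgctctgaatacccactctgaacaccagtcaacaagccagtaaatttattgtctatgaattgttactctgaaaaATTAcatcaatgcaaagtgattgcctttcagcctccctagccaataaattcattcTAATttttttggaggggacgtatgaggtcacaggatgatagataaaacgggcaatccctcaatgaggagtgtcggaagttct

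*Uts2b* held 3 matches, starting 188, 65 and 25 bases before the start, and *Uts2* held 2, starting 137 and 82 bases before it. No matches overlapped. Of 32851 RefSeq promoters of this length, 54.9% held at least 1 match, 17.3% held 3 or more and 30.8% held 2 or more. The promoter of *Uts2r* held 2 as well. The letters are common in promoters and a match is not a binding site.

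As MNs are a known source of urotensins, *Uts2b* was set beside 3 cholinergic genes in each library, although unsorted tissue does not show which cells made it. *Chat* makes acetylcholine, *Slc18a3* loads it into vesicles and *Slc5a7* takes up choline. Fewer MNs and less *Uts2b* RNA per MN cannot be told apart in bulk tissue. By staining at a later embryonic stage, the study reported unchanged numbers of median and lateral motor column MNs in KO at these levels. It also named *Uts2b* among the features of a lateral motor column subcluster in a published single-cell dataset. The log2 level of *Uts2b* minus the mean log2 level of the 3 genes was 0.65, 0.54 and 0.58 in brachial Het and −0.3, −0.53 and −0.63 in brachial KO. In lumbar libraries it was 0.35, 0.77 and 0.62 in Het and −0.52, −0.62 and 0.29 in KO.

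The difference of −1.08 in the brachial cord was nearly that of *Uts2b* alone, as the mean of the 3 cholinergic genes overlapped between brachial KO and Het. Of the 3, *Chat* alone was lower in all brachial KO libraries (log2 change −0.21, SE 0.11, adjusted p = 0.384, limma). In the lumbar cord it was −0.86, smaller than −1.17. There the 3 cholinergic genes summed to 38.9 to 55.3 TPM in Het and 29.4 to 46.1 TPM in KO, and lumbar KO replicate 3 had the lowest level. In that library *Uts2b* relative to the cholinergic genes stood next to the Het libraries, and its 11.1 TPM of *Uts2b* was the highest of lumbar KO. Without it the KO minus Het difference of *Uts2b* in the lumbar cord was −1.26 (SE 0.09). With all 10 MN genes as the reference, the difference was −1.09 in the brachial and −0.92 in the lumbar cord.

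**Figure D2:**
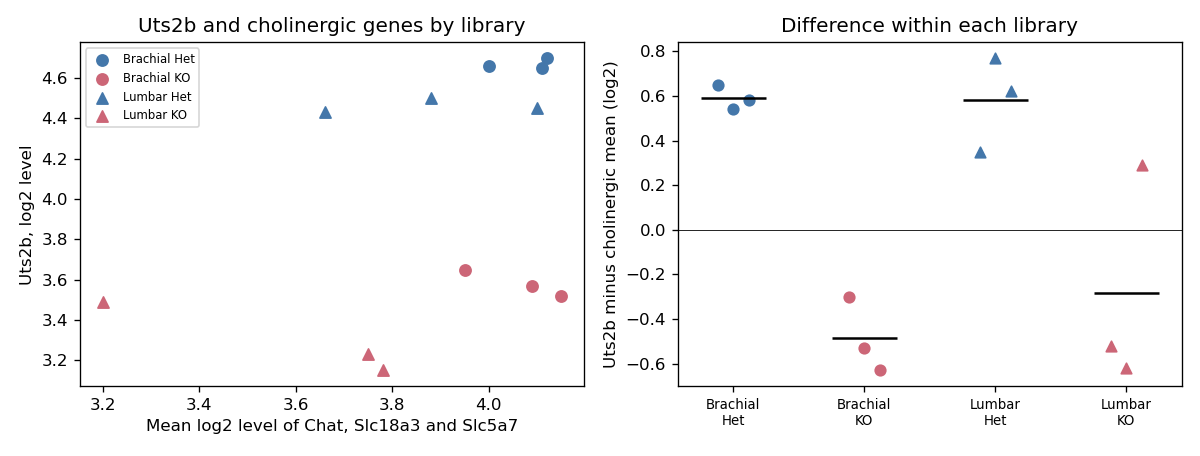
Left, log2 level of *Uts2b* against the mean log2 level of *Chat*, *Slc18a3* and *Slc5a7* in each of the 12 libraries (circles brachial, triangles lumbar, Het in blue, KO in red). Right, the difference of these values in each library with the group mean as a bar. The 3 brachial KO libraries lie from −0.63 to −0.3 and all Het libraries from 0.35 to 0.77, while lumbar KO replicate 3 is at 0.29.

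The list of 10 MN genes (*Chat*, *Slc18a3*, *Slc5a7*, *Mnx1*, *Isl1*, *Lhx3*, *Lhx4*, *Foxp1*, *Aldh1a2* and *Prph*) was detected in every library. In brachial KO 0 were called and 2 had an unadjusted p under 0.05 (limma), with a median log2 change of 0.07 against −0.01 over all genes. In lumbar KO 9 of 10 were below 0, with a median of −0.28. An unadjusted p under 0.05 held for 3 of them (limma), and 1 was called lower, or 3 without lumbar KO replicate 2. The 1 was *Prph*, an intermediate filament of MNs and sensory neurons, at −0.78 (SE 0.19, adjusted p = 0.964, limma). The lumbar MN list summed to 345 to 452 TPM in Het and 265 to 381 TPM in KO, and the brachial list to 638 to 652 and 576 to 600 TPM. The brachial sums did not overlap, but most of their difference was *Prph*, at 309 TPM in Het and 259 TPM in KO, and only 4 of the 10 genes were below 0 there. The part of MN gene levels in the *Uts2b* values was not tested.

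Markers of other cell types gave sums that overlapped between genotypes, with an exception at each level. In the brachial cord it was the skeletal muscle list, at 4.8 to 5.29 TPM in Het and 3.2 to 4.43 TPM in KO, with its defining gene *Myod1* at 0 in all libraries. In the lumbar cord it was the list of progenitor genes, at 130 to 149 TPM in Het and 164 to 170 TPM in KO, which had overlapped at 108 to 126 and 101 to 139 TPM in the brachial cord. The red blood cell list summed to 2000 to 3440 TPM in brachial Het and 2860 to 5780 TPM in brachial KO, and to 2030 to 3220 and 2620 to 4200 TPM in the lumbar groups. All 6 of its genes were above 0 at both levels (median log2 change 0.49 and 0.48), as were all 5 ventral interneuron genes in brachial KO (median 0.34) and all 5 dorsal interneuron genes in lumbar KO (median 0.18). Over all these marker lists 2 of 43 tested genes were called higher in brachial KO, the interneuron gene *Gata3* (0.71) and the sensory neuron gene *Prdm12* (0.96). In lumbar KO 2 of 42 were, the dorsal interneuron gene *Ptf1a* (0.81) and the embryonic globin gene *Hba-x* (0.69), and 0 were called lower at either level. The share of tested markers called was thus 4.65% in the brachial and 4.76% in the lumbar cord. Over all genes it was 3.08% and 1.77% in either direction (limma). The sensory ganglion gene *Runx3* was at 0 in all libraries. The part of these cells in the *Uts2b* values was not tested.

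The somatostatin relatives are the nearest peptide system by structure. Of *Sst*, *Cort* and the receptors *Sstr1* to *Sstr5*, 7 genes, 6 were tested in the brachial and 3 in the lumbar cord, and 0 were called in KO at either level, where 0 also had an unadjusted p under 0.05 (limma). *Sst*, the somatostatin precursor, was far more abundant than either urotensin. It measured 99, 108 and 86.9 TPM in brachial Het and 118, 96.2 and 109 TPM in brachial KO (log2 change 0.14, SE 0.11, limma adjusted p = 0.522). Lumbar values were 161, 128 and 126 TPM in Het and 137, 130 and 91.4 TPM in KO (−0.23, SE 0.16, adjusted p = 0.999). *Sst* overlapped between genotypes at both levels. The receptor gene *Sstr1* was lower in lumbar than in brachial libraries, by −1.74 on the log2 scale in Het (SE 0.28, adjusted p = 0.0257) and by −1.28 in KO (SE 0.25, adjusted p = 0.0498, limma), contrasts in which 1.97% and 0.959% of genes were called lower.

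Urotensin precursors are cut by proprotein convertases. Of 11 listed processing genes, 10 were tested, with 0 called or at an unadjusted p under 0.05 in brachial KO (limma) and 1 called lower in lumbar KO. This was *Scg5*, the chaperone of the convertase PCSK2, which measured 205, 218 and 215 TPM in lumbar Het and 100, 191 and 107 TPM in lumbar KO (log2 change −0.75, SE 0.22, limma adjusted p = 0.999). At the brachial level *Scg5* was 114, 223 and 239 TPM in Het and 116, 103 and 168 TPM in KO, and the genotypes overlapped. *Pcsk2* itself averaged 12 ± 0.241 TPM in lumbar Het and 11.4 ± 0.991 TPM in lumbar KO (SD, n = 3). The transcript of this convertase was lower in lumbar than in brachial Het libraries (log2 difference −0.67, SE 0.07, adjusted p = 0.00606, limma).

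Downstream of the receptor, 14 of 15 genes of Gq, phospholipase C, calcium release, protein kinase C and MAP kinase were tested, and 0 were called in KO at either level, with 1 at an unadjusted p under 0.05 at each (limma). These were *Gnaq* in the brachial and *Plcb1* in the lumbar cord. The median log2 change was 0.13 in the brachial and 0.02 in the lumbar cord, against −0.01 over all genes at both levels. *Gnaq*, the Gq alpha subunit, was present at 42.2 to 45.4 TPM in brachial Het and 49.5 to 67.7 TPM in brachial KO. *Plcb1* and *Prkcb*, a phospholipase and a kinase of the pathway, were lower in lumbar than in brachial Het libraries (log2 difference −0.44 and −0.71, adjusted p = 0.0327 and 0.0363, limma). The machinery that a urotensin receptor would use was thus read, although the receptor was hardly detected.

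**Figure D3:**
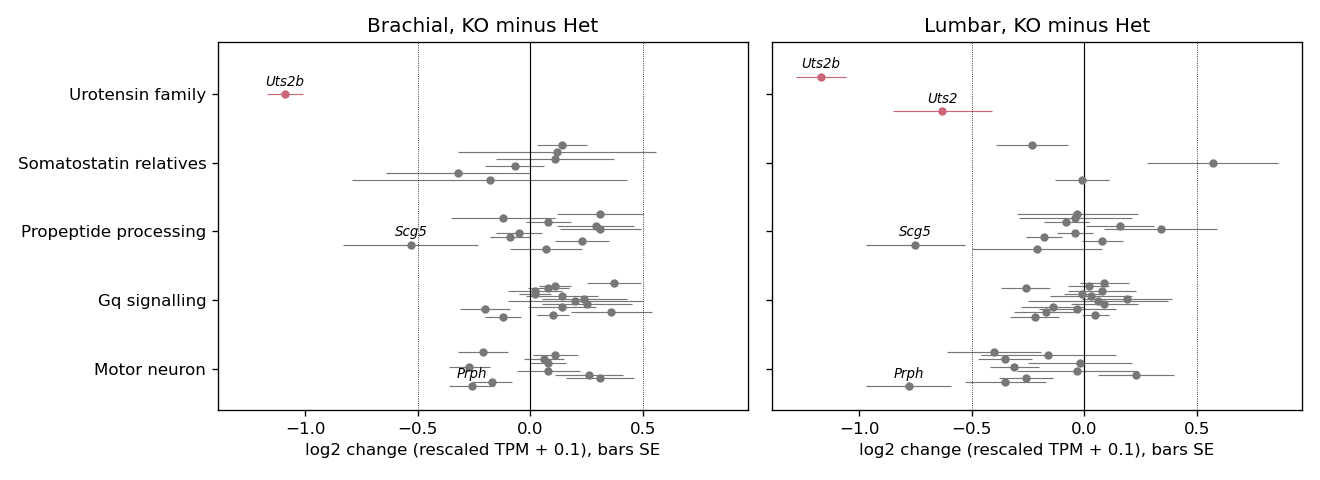
KO minus Het log2 change of each tested gene (point) with its SE (bar) in the urotensin family (red) and in 4 related lists (grey), brachial on the left and lumbar on the right. The dotted lines mark changes of −0.5 and 0.5. *Uts2b* lies at −1.09 and −1.17, while in the other lists *Scg5* and *Prph* reach −0.75 and −0.78 in the lumbar cord.

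Genes within 250 kb of the 3 members were looked at. Those averaging at least 0.5 TPM over the 12 libraries, overlapping a member or nearest on a side were listed. This gave 24 neighbours, of which 19 were tested at each level. With the threshold of the study 0 were called in KO at either level, and 4 had an unadjusted p under 0.05 in the brachial and 1 in the lumbar cord (limma). The nearest genes on either side of *Uts2b* are *Ostn*, 2.1 kb away, a secreted bone and muscle peptide gene that was at 0 in all libraries, and *Ccdc50*, 16.8 kb away. *Ccdc50* measured 61.2 to 62.8 TPM in brachial Het and 67.2 to 80.9 TPM in brachial KO, a log2 change of 0.24 (SE 0.08, limma adjusted p = 0.357). Lumbar values were 65 to 68.1 TPM in Het and 67.7 to 73.2 TPM in KO (0.08, SE 0.06, adjusted p = 0.999). Around *Uts2* and *Uts2r* the log2 changes lay between −0.4 and 0.45 in the brachial and between −0.38 and 0.18 in the lumbar cord.

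**Figure D4:**
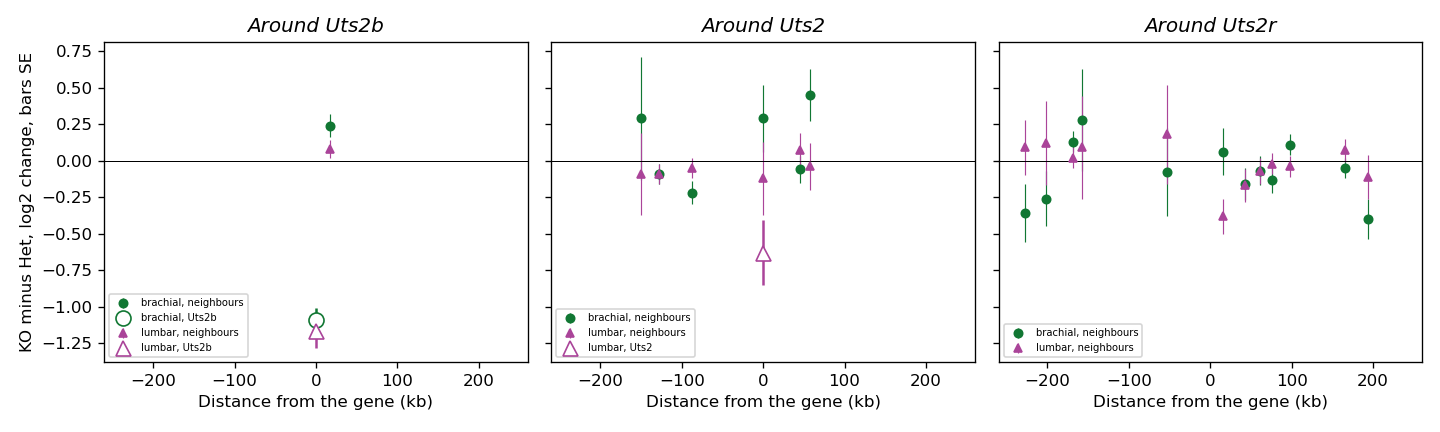
KO minus Het log2 change with SE of the listed and tested genes within 250 kb of *Uts2b*, *Uts2* and *Uts2r*, against their distance in kb (0 for an overlap, negative for lower coordinates). Filled circles are brachial, filled triangles lumbar, and open symbols are the member itself. *Uts2b* lies at −1.09 and −1.17, and its only tested neighbour, *Ccdc50*, lies at 0.24 and 0.08.

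The genes whose profile over the 12 libraries was most like that of *Uts2b* were found by the root mean square difference of log2 levels, each centred on its own mean, among 14940 genes with a mean of at least 1 TPM. A gene with no variation would lie 0.583 away and the median gene lay 0.613 away. The closest was *Slc35f2*, a solute carrier gene, at 0.317, followed by the pseudogene *Atp5l-ps2* at 0.323, the noncoding RNA *2900009J06Rik* at 0.332, the pseudogene *Gm34432* at 0.34 and the small nuclear RNA *Gm22513* at 0.358. As *Uts2b* was listed for its KO values, genes close to it are lower in KO by construction, and nothing is read from that.

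The group means of *Slc35f2* were 8.89 and 6.47 TPM in brachial and lumbar Het and 6.12 and 3.65 TPM in the KO groups. Its KO minus Het log2 differences, −0.54 in the brachial and −0.81 in the lumbar cord, were smaller in size than those of *Uts2b*. Its differences between levels, −0.45 in Het and −0.72 in KO, were larger. *Slc35f2* lies on chromosome 9, as does the targeted gene *Isl2*, and the part of linkage to the null allele in its values was not tested.

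**Figure D5:**
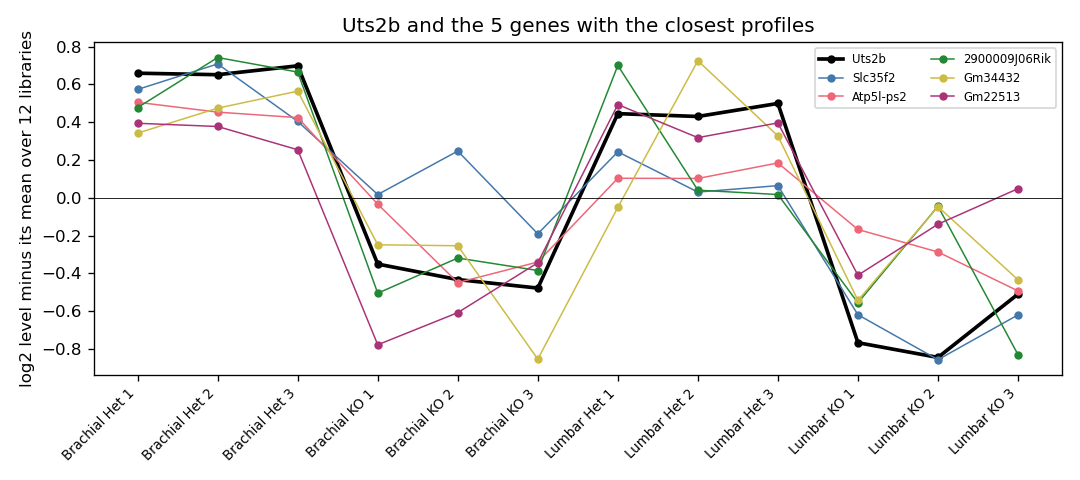
Log2 level minus its mean over the 12 libraries (vertical axis) for *Uts2b* (black) and the 5 genes closest to it, by library (horizontal axis). *Uts2b* lies between 0.43 and 0.698 in the 6 Het libraries and between −0.845 and −0.351 in the 6 KO libraries, and the other genes follow with more scatter.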

How the data were processed

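Ventral spinal cord RNA was extracted and made into stranded, ribosomal RNA-depleted libraries. According to the labels, the authors used FastQC 0.11.7, Trimmomatic 0.38, HISAT2 2.1.0, Bowtie2 2.3.4.1 and StringTie 2.1.3b with mm10. TPM, FPKM and per-base coverage of each gene are StringTie output that the authors deposited, one table per library. TPM has a fixed total per library, so a change in abundant RNAs shifts all other values, hence the rescaling. No counts were used here, so DESeq2 as used by the authors was not run, and no counting interval is given. Dividing coverage by FPKM gave the aligned bases, 4.49 to 6.64 Gb per library. Symbols came from RefSeq GRCm38.p6 (45679 of 45777 identifiers).

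Median-of-ratios size factors (0.896 to 1.252) were applied to TPM, 0.1 was added, and log2 values of genes averaging 0.5 TPM or more were fitted with limma 3.58.1 (R 4.3.3, eBayes with trend) to the 6 libraries of a comparison. Adjusted p-values use Benjamini-Hochberg over all genes tested, and the fit was tested on simulated data. The members and lists were chosen with earlier results of these data known. A further branch of signalling downstream of the receptor was taken off its list for reasons other than its values and is not reported here. Named genes are the members, *Isl2*, list members, the listed neighbours within 250 kb, the 5 closest profiles and the gene next by p (not printed). Replicate numbers were checked as pairs and not used. Alternatives were other pseudocounts, filters, scalings and fits, and leaving out each library.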

Additional observations from a re-analysis of the deposited data

How the results depend on the processing

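The KO minus Het log2 difference of *Uts2b* stayed negative under all 18 alternatives at each level, from −1.13 to −0.92 in the brachial and from −1.26 to −1.1 in the lumbar cord. In the brachial cord it moved to −1.04 with a pseudocount of 1 and to −0.92 with the values as deposited. The difference between the KO effects of *Uts2b* moved to −0.24 with the values as deposited and ranged from −0.17 to −0.01 when 1 library was left out, −0.17 without lumbar KO replicate 3. The lumbar minus brachial difference of *Uts2* in KO lost its call with a pseudocount of 0.01 (4.84, adjusted p = 0.0779), with no filter (3.44, adjusted p = 0.118), with coverage (4.16, adjusted p = 0.0808), with eBayes without a trend (3.44, adjusted p = 0.0937) and with the replicate number as a block (3.44, adjusted p = 0.0604), all in limma, and it ranged from 2.86 to 4.04 when 1 library was left out. The difference between the KO effects of *Uts2* turned to −0.1 with a pseudocount of 1 (adjusted p = 0.926, limma). The lumbar minus brachial difference of *Uts2b* was past the threshold (−0.25, adjusted p = 0.0185, limma) in the fit of all 12 libraries averaged over genotypes, added after the data had been seen. With a pseudocount of 1 the *Uts2* level difference fell to 1.62 in Het and 1.52 in KO, and the Het difference stayed past the threshold. In KO *Uts2* passed the filter only through its lumbar libraries, so its adjusted p is no independent support there. Counts of called list genes in brachial KO, 0 as reported, rose to 2 for Gq signalling and 1 for neighbours with the values as deposited, to 1 for processing genes with the replicate block, and to at most 2 when 1 library was left out (neighbours, without brachial KO replicate 1). In lumbar KO they rose from 0 to 1 for neighbours with no filter and for somatostatin relatives without lumbar Het replicate 1. The cause of these shifts was not tested. Deviations of same-numbered brachial and lumbar libraries correlated from −0.02 to 0.35 in Het and from −0.2 to 0.07 in KO. With 3 libraries per group this cannot settle whether they share an embryo. The globin gene *Hbb-bs* ran 170, 307 and 178 TPM in brachial and 165, 295 and 178 TPM in lumbar Het. In KO it ran 205, 325 and 282 TPM and 182, 191 and 274 TPM. The numbers were not treated as pairs, so comparisons of levels and fits of all 12 libraries took the libraries as independent. The block changed no other call of *Uts2b*, *Uts2* or *Isl2*. Depth limits *Uts2* in the brachial cord and *Uts2r* throughout.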
